A study of Mus musculus with 6 samples.

Results

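The genes described here are 8 targets of the Notch receptor that are measured in thymocytes, the developing T cells of the thymus: Dtx1, Hes1, Hes5, Hey1, Heyl, Nrarp, Ptcra and Igf1r. They were taken by gene symbol from the array's annotation, all 8 were found, each through a single probe set with 1 symbol, and together they are 8 of 19937 genes tested. The probe sets were 10533182 for Dtx1, 10434925 for Hes1, 10510950 for Hes5, 10497203 for Hey1, 10507840 for Heyl, 10469936 for Nrarp, 10451465 for Ptcra and 10554094 for Igf1r.

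The data are from 6 mouse arrays, each hybridised with the RNA of 1 sample, in 3 groups of 2. Every group was made of Thy1.2+ cells taken with magnetic beads from the thymus of Rag1-/- mouse embryos at the embryonic stage E17.5. The first group, Control-0h, held cells of fresh thymi, called fresh below; the second, Control-DMSO-40h, was stimulated for 40 h with anti-CD3 in the solvent DMSO; the third, 79-6-40h, was stimulated for 40 h with anti-CD3 and 50 µM 79-6, a small molecule that binds the transcriptional repressor Bcl6. Rag1 is needed to rearrange T cell receptor genes, so thymocytes that lack it are held at the double-negative 3 stage (DN3), and anti-CD3 stands in for a signal from the pre-T cell receptor. There was no group with 79-6 alone and none cultured without anti-CD3, and the series design, but not the sample labels, places the stimulation in organ cultures, where stroma surrounds the thymocytes. The study asked how Bcl6 bears on Notch signals in these cells, and the comparison of 79-6 with DMSO is the one closest to this question. 79-6 was given at 50 µM only, and no group altered Bcl6 in another way. Effects through Bcl6 and other effects of the compound therefore cannot be told apart.

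Notch is a surface receptor that is cleaved when a ligand on a neighbouring cell, Dll4 in the thymus, binds it. The freed intracellular domain enters the nucleus, joins the DNA-binding protein Rbpj and a Mastermind coactivator, and switches on target genes. Thymic progenitors need this signal to become T cells, and it is known to fall after the pre-T cell receptor check called beta-selection. Among the targets, Hes1, Hes5, Hey1 and Heyl encode basic helix-loop-helix repressors, Nrarp encodes an ankyrin-repeat protein that acts back on Notch, Dtx1 encodes Deltex1, a ubiquitin ligase that acts on the Notch pathway, Ptcra encodes the pre-T cell receptor alpha chain, and Igf1r encodes the receptor for insulin-like growth factor 1.

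Promoter windows of 250 bases before to 50 bases after the start of the gene (RefSeq, GRCm38.p6) were matched for 5 of the 8 genes: Dtx1, Hes5, Igf1r, Nrarp and Ptcra. The 250 bases before the start are shown for Dtx1, whose response to 79-6 stood apart in the arrays, for Ptcra, which fell from fresh to DMSO and was not called with 79-6 against DMSO, and for Hes5, which was not called in any comparison; capitals mark TGGGAA, the core of the sequence that Rbpj binds, or its reverse complement TTCCCA. The Dtx1 stretch is chr5:120711670-120711919 (minus strand), the Ptcra stretch chr17:46763713-46763962 (minus strand) and the Hes5 stretch chr4:154960673-154960922 (plus strand), each printed 5′ to 3′ on the strand of its gene.
Dtx1: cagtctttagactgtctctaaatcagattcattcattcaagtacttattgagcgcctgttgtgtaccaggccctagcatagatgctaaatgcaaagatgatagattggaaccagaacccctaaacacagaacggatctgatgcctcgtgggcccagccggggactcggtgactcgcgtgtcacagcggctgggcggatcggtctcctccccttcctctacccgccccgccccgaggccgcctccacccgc
Ptcra: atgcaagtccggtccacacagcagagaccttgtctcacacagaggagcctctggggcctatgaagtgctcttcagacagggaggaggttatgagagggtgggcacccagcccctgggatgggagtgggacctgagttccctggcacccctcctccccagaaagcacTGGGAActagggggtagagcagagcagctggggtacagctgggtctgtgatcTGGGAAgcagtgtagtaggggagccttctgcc
Hes5: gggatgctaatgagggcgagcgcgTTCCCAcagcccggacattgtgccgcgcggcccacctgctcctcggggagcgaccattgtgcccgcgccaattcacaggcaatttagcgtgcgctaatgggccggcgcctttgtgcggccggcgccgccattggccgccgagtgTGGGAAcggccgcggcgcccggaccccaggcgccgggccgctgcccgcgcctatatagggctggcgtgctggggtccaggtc
TGGGAA, searched on both strands, was present in 3 of the 5 windows of 300 bases, against 25.6% of the 32851 windows in the table. In Ptcra it lay at -84 to -79 and at -32 to -27, counted from the start of the gene, both on the gene's strand. In Hes5 it lay at -82 to -77 on the gene's strand and at -226 to -221 on the opposite strand, and in Igf1r at 30 to 35. The Hes5 matches are also the longer form GTGGGAA, which contains the shorter one and was found in 1 of the 5 windows and 6.38% of all. The letters TTCCTNGAA, a core of the sequence bound by Bcl6, were in 0 of the 5 windows, against 1.59% of all. No TGGGAA is present in the windows of Dtx1 and Nrarp. These are matches of letters in a short window; binding was not measured.

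The values below are log2 of the deposited intensities, and they describe each gene's own probe set; levels were not compared between genes. A change is a difference of group means on this log2 scale with its standard error (SE) from limma, its p-value is adjusted by the Benjamini-Hochberg method over 19937 genes, and a gene is called at an adjusted p under 0.05. Correlations across genes between the 2 arrays of a group were 0.998 for fresh cells, 0.998 for DMSO and 0.997 for 79-6, and array medians ran from 99.3 to 103.6. Thy1, the antigen of the purification, had a mean log2 of 12.80 in fresh cells, 13.23 with DMSO and 13.07 with 79-6, and 7 of 8 T-lineage markers were measured, with summed intensities of 40036 to 40880, 36532 to 37151 and 38159 to 39841. From fresh to DMSO 4 of these 7 rose, Thy1 among them, and 3 fell, Cd3g furthest (-0.68), against 8.89% and 10.7% of all genes. From DMSO to 79-6 Cd7 rose by 1.11 (adjusted p = 0.0124 by limma), a call lost without either DMSO array or 79-6 replicate 2, and the other 6 were not called. Of all genes, 2.38% were called higher and 1.98% lower in that comparison.

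The comparison of DMSO at 40 h with fresh cells shows what the targets did during stimulated culture. Of the 8 genes, 6 fell and 0 rose: Ptcra, Hes1, Dtx1, Hey1, Nrarp and Heyl dropped by 1.28 to 1.86 on the log2 scale, while Hes5 and Igf1r were not called. Over all genes tested 10.7% fell and 8.89% rose. The median change was -1.37 over the 8 genes and 0.02 over all genes. The fall of the 6 genes was called in each of 12 alternative analyses, not all of which can change these values. Culture, time, anti-CD3 and the solvent differ together between these groups and cannot be told apart, and in bulk samples fewer cells of a type cannot be told apart from less RNA per cell.

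Among the Hes and Hey repressors, Hes1 read 10.75 and 10.63 in fresh cells and 9.15 and 9.19 with DMSO. Both DMSO arrays lay below both fresh arrays, and the change was -1.52 (SE 0.09, adjusted p = 6.8e-05 by limma), a 2.87-fold lower level. Hey1 read 8.48 and 8.51 in fresh cells and 6.96 and 7.17 with DMSO. Its groups did not overlap either, and it fell by 1.43 (SE 0.11, adjusted p = 2.3e-04 by limma). Heyl read 8.27 and 8.18 in fresh cells and 7.03 and 6.86 with DMSO, a fall of 1.28 (SE 0.09, adjusted p = 1.5e-04 by limma). Among the Hes and Hey genes that are targets here, Hes5 was the exception. It read 7.73 and 7.95 in fresh cells and 8.05 and 7.91 with DMSO, with overlapping arrays and a change of 0.14 (95% interval -0.10 to 0.37, adjusted p = 0.418 by limma).

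Of the feedback genes, Dtx1 read 12.19 and 12.26 in fresh cells and 10.69 and 10.72 with DMSO. The arrays within each group lay close together, and the change was -1.52 (SE 0.07, adjusted p = 2.7e-05 by limma), 2.87-fold lower. Nrarp read 8.69 and 8.86 in fresh cells and 7.34 and 7.56 with DMSO, a fall of 1.32 (SE 0.10, adjusted p = 1.9e-04 by limma). Both genes were thus lower in every DMSO array than in any fresh array, as were Hes1 and Hey1 above. Such separation is common with 2 arrays per group: from DMSO to 79-6 it held for 26.8% of all genes upward and 22.2% downward. Its share over all genes was not computed for the comparisons with fresh cells.

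Of the genes with roles in thymocyte growth and the pre-T cell receptor, Ptcra read 11.87 and 11.80 in fresh cells and 9.93 and 10.03 with DMSO. It fell furthest of the 8, by 1.86 (SE 0.08, adjusted p = 1.7e-05 by limma), a 3.62-fold lower level. Igf1r read 9.34 and 9.32 in fresh cells and 9.28 and 9.36 with DMSO. Its arrays overlapped, with a change of -0.01 (95% interval -0.22 to 0.20, adjusted p = 0.965 by limma). Set against the 19937 genes, 60 fell at least as far as Ptcra, 127 as far as Hes1, 129 as far as Dtx1, 152 as far as Hey1, 179 as far as Nrarp and 194 as far as Heyl, each count including the gene itself.

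**Figure D1:**
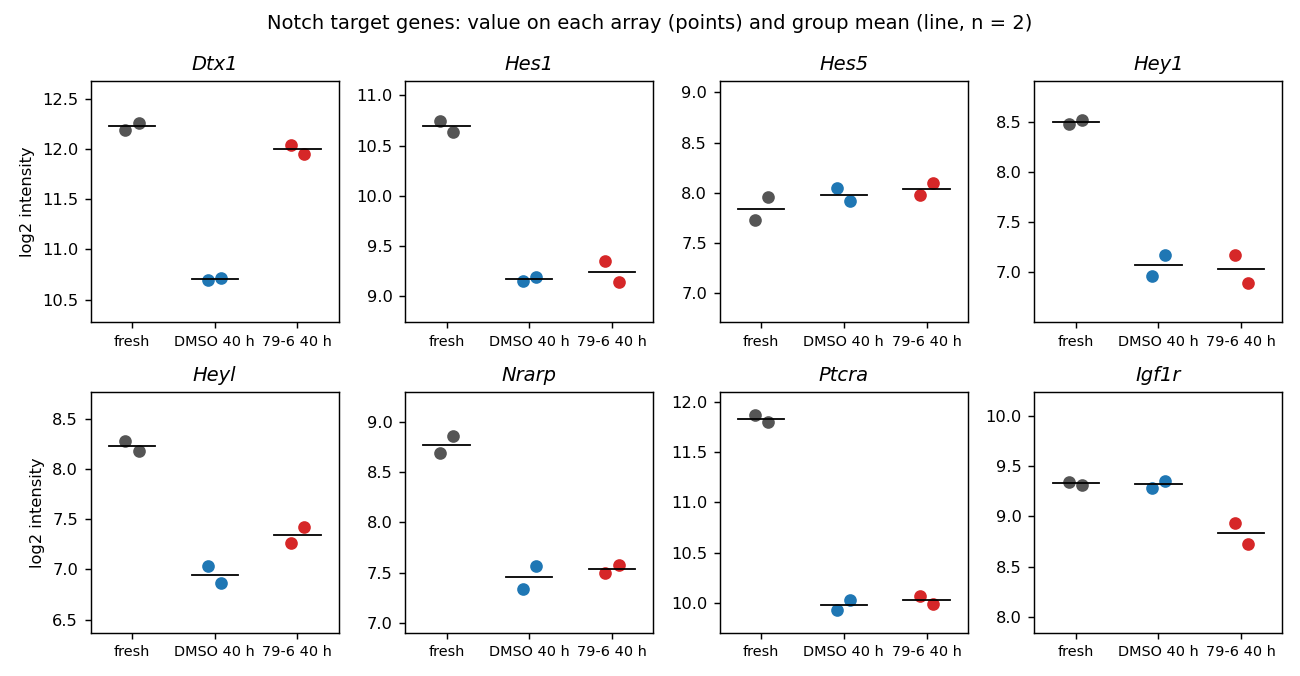
Log2 intensity of the 8 Notch target genes on each of the 6 arrays, 1 panel per gene; points are arrays and horizontal bars the means of 2 arrays for fresh cells, DMSO at 40 h and 79-6 at 40 h. Dtx1 returns from a mean of 10.71 with DMSO to 12.00 with 79-6, near its fresh mean of 12.23, while Hes1, Hey1, Nrarp and Ptcra with 79-6 lie close to their DMSO arrays.

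The second comparison, 79-6 against DMSO at 40 h, asks which targets stood higher or lower when the Bcl6 inhibitor was present. Dtx1 rose 2.45-fold and Igf1r fell, so 1 of the 8 genes was called higher and 1 lower, against 2.38% and 1.98% of all genes. The other 6, Hes1, Hes5, Hey1, Heyl, Nrarp and Ptcra, were not called. The median change was 0.07 over the 8 genes and 0.02 over all genes.

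Dtx1 read 10.69 and 10.72 with DMSO and 12.04 and 11.96 with 79-6. Both 79-6 arrays lay well above both DMSO arrays and slightly below both fresh arrays. The change was 1.29 (SE 0.07, 95% interval 1.12 to 1.46, adjusted p = 5.9e-04 by limma), 38 of the 19937 genes rose at least this far, Dtx1 included, and the call held in all 12 alternatives.

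Igf1r read 9.28 and 9.36 with DMSO and 8.93 and 8.73 with 79-6. Both 79-6 arrays were below every other array, and the change was -0.49 (SE 0.09, 95% interval -0.70 to -0.28, adjusted p = 0.0309 by limma). At least as large a fall was seen for 246 genes, Igf1r included. This call rests on single arrays: the adjusted p by limma was 0.0531 without either fresh array or with the 4 arrays of the 2 groups alone, 0.126 without DMSO replicate 1 or 79-6 replicate 2, and 0.17 without DMSO replicate 2.

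Heyl read 7.03 and 6.86 with DMSO and 7.26 and 7.42 with 79-6. The arrays did not overlap, and the change of 0.39 (SE 0.09, 95% interval 0.17 to 0.61) missed the threshold at an adjusted p of 0.0642 by limma; it passed at 0.0369 when dim probe sets were left out and at 0.0488 with limma's trend and robust settings. At least as large a rise was seen for 710 genes, Heyl included. Counting only whether arrays overlap, 2 of the 8 genes (Dtx1 and Heyl) lay higher with 79-6 and 1 (Igf1r) lower, against 26.8% and 22.2% of all genes.

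The remaining targets had small differences with intervals that include 0. Hes1 read 9.35 and 9.14 with 79-6, a change of 0.07 from DMSO (95% interval -0.14 to 0.29, adjusted p = 0.701 by limma). Hey1 read 7.17 and 6.90 with 79-6, a change of -0.03 (95% interval -0.30 to 0.23, adjusted p = 0.9 by limma). Both intervals stay far below the rise of Dtx1. Hes5 read 7.98 and 8.10 with 79-6, a change of 0.06 (95% interval -0.18 to 0.30, adjusted p = 0.785 by limma). Nrarp read 7.50 and 7.57 with 79-6, a change of 0.08 (95% interval -0.15 to 0.32, adjusted p = 0.69 by limma). Ptcra read 10.06 and 9.99 with 79-6, a change of 0.05 (95% interval -0.13 to 0.23, adjusted p = 0.762 by limma). Changes within these intervals cannot be told from 0 with 2 arrays per group.

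The third comparison, 79-6 at 40 h against fresh cells, shows how far each target stood from its starting level with the inhibitor present; it shares arrays with the other comparisons and is not a separate test of them. Here 6 of the 8 genes were lower and 0 higher, against 13.9% and 12.0% of all genes, and the median change was -1.06 over the 8 genes and 0.05 over all genes. Ptcra stood lowest relative to fresh cells, by -1.81 (SE 0.08, adjusted p = 1.5e-05 by limma). Hey1 (-1.46), Hes1 (-1.45), Nrarp (-1.24) and Heyl (-0.89) were also lower, and Igf1r was lower by -0.50 (SE 0.09, adjusted p = 0.00581 by limma). All 6 calls held in the 12 alternatives. Dtx1 differed from fresh cells by -0.23 (SE 0.07, 95% interval -0.40 to -0.05), with arrays that did not overlap and an adjusted p of 0.0597 by limma; the adjusted p was 0.0285 without dim probe sets and 0.00814 with trend and robust settings. Hes5 differed by 0.20 (95% interval -0.04 to 0.43, adjusted p = 0.195 by limma).

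The order of the group means therefore differed between genes. For Hes1, Hey1, Nrarp and Ptcra fresh cells were highest, and DMSO and 79-6 did not differ beyond the spread of their arrays. For Heyl the order was fresh, 79-6 and DMSO (8.23 ± 0.07, 7.34 ± 0.11 and 6.95 ± 0.12; SD, n = 2), with the lower pair not separated by the test. Dtx1 had the same order with other distances, 12.23 ± 0.05, 12.00 ± 0.06 and 10.71 ± 0.02 (SD, n = 2), and there the upper pair was not separated. Igf1r stood at 9.33 ± 0.02 in fresh cells, 9.32 ± 0.05 with DMSO and 8.83 ± 0.15 with 79-6 (SD, n = 2), and the 3 Hes5 means of 7.84 ± 0.16, 7.98 ± 0.09 and 8.04 ± 0.08 (SD, n = 2) were not separated by the test in any comparison, although both 79-6 arrays lay above both fresh arrays.

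**Figure D2:**
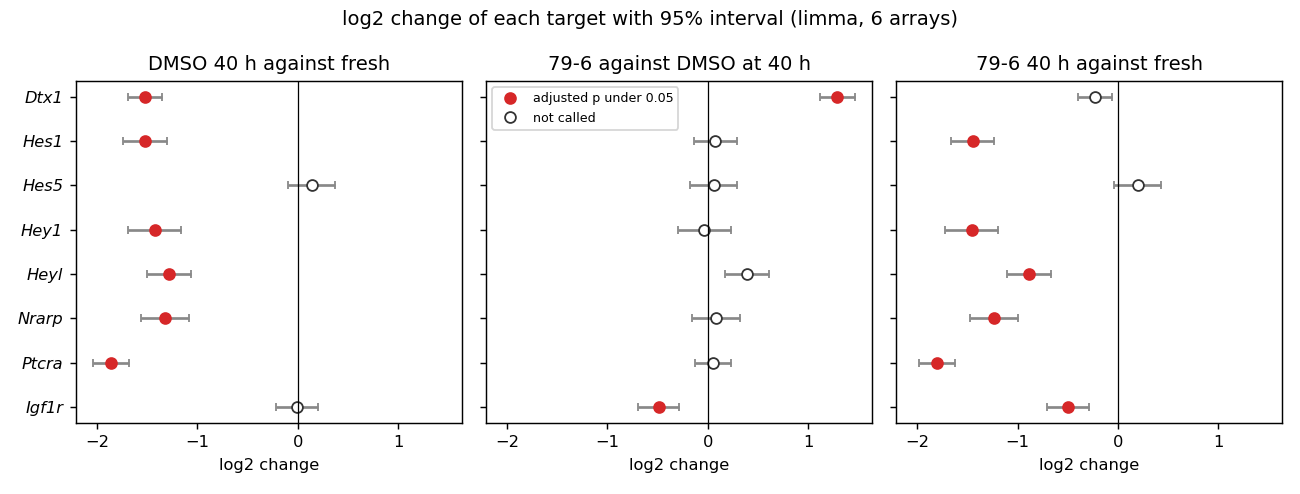
Log2 change of the 8 Notch target genes in the 3 comparisons, with 95% intervals from limma; the label of each panel names the groups compared. In the middle panel Dtx1 lies at 1.29, Heyl at 0.39 and Igf1r at -0.49, and the intervals of the other 5 genes include 0.

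Dtx1 was then set against each other target within arrays, by fitting the difference between the Dtx1 value and the gene's value over the 6 arrays, so that the result is the Dtx1 change minus the gene's change with its own error. All 7 of these differences share the Dtx1 values. From DMSO to 79-6, Dtx1 rose more than all 7 other targets. The difference was 1.22 for Hes1 (95% interval 0.99 to 1.44, adjusted p = 1.1e-06 by limma), 1.33 for Hey1 (1.09 to 1.57), 1.21 for Nrarp (0.97 to 1.45), 1.23 for Hes5 (0.98 to 1.48), 1.24 for Ptcra (1.03 to 1.46) and 1.78 for Igf1r (1.57 to 1.99). It was smallest for Heyl, at 0.90 (0.63 to 1.17, adjusted p = 3.4e-05 by limma). The same was called for 99.5% of the 19936 other genes, and the reverse for 0.0903%, so the 7 targets resemble the genome at large here, and the count says that Dtx1 moved, not that these targets are unusual.

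From fresh to DMSO, 4 of the 7 targets had falls that were not called different from that of Dtx1. The Dtx1 change minus that of Hes1 was 0.00 (95% interval -0.22 to 0.23, adjusted p = 0.982 by limma). It was -0.09 for Hey1 (-0.33 to 0.14) and -0.20 for Nrarp (-0.44 to 0.04), neither of which was called. These intervals leave room for differences of up to about the bounds given. For Heyl it was -0.24 (-0.51 to 0.03, adjusted p = 0.0758 by limma), and it passed at 0.0488 without DMSO replicate 2 and at 0.0435 without either 79-6 array or with the 2 groups alone. Dtx1 fell less than Ptcra, by 0.34 (0.12 to 0.55, adjusted p = 0.00584 by limma; 0.0525 without fresh replicate 1). It fell more than Hes5 (-1.66) and Igf1r (-1.51). Dtx1 was thus called higher against 1 of 7 targets and lower against 2, where 0.336% and 99.0% of all other genes were called. Most genes tested had small changes here, with a median of 0.02, whereas 5 of these 7 fell.

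Against fresh cells, the Dtx1 change with 79-6 was higher than that of 6 targets and lower than that of 1, with 6.90% and 47.1% of all other genes called in those directions. The difference was 1.58 for Ptcra, 1.23 for Hey1, 1.22 for Hes1, 1.01 for Nrarp and 0.66 for Heyl (adjusted p = 0.0029 by limma). For Igf1r it was 0.27 (95% interval 0.06 to 0.48, adjusted p = 0.0359 by limma), a call lost without fresh replicate 1 (0.149), fresh replicate 2 (0.0905), either DMSO array (0.0595) or 79-6 replicate 2 (0.148). For Hes5 it was -0.43 (-0.68 to -0.17, adjusted p = 0.014 by limma), lost without fresh replicate 1 (0.0817) or 79-6 replicate 2 (0.0678).

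**Figure D3:**
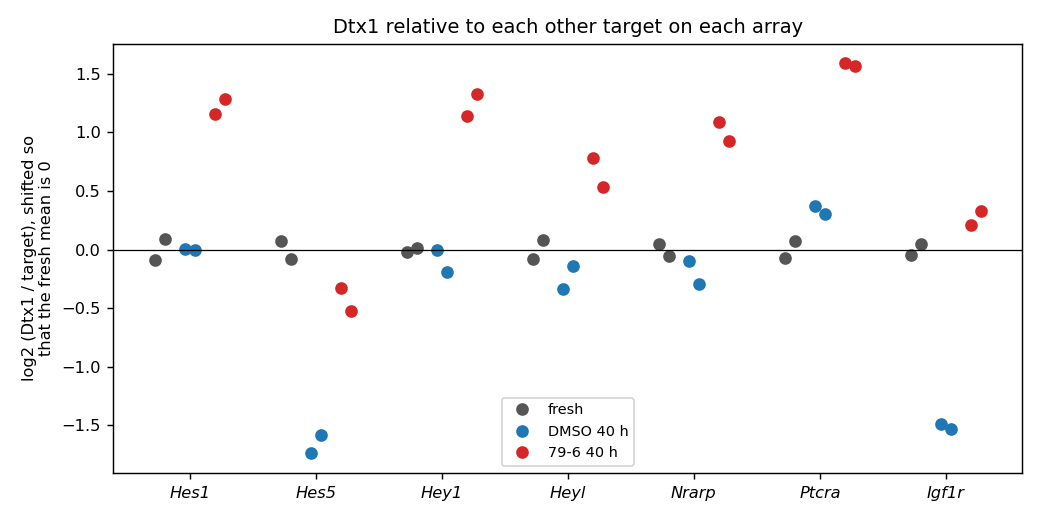
Log2 value of Dtx1 minus that of each of the 7 other Notch targets on each of the 6 arrays. Points are arrays, and each target's values are shifted so that the mean of its fresh arrays is 0. For all 7 targets both 79-6 arrays lie above both DMSO arrays. The distance between these group means is 0.90 (Heyl) to 1.78 (Igf1r). The DMSO arrays of Hes1, Hey1, Nrarp and Heyl lie near 0.

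Likeness of the genes' profiles was described by the Euclidean distance between log2 values over the 6 arrays after each gene was centred on its own mean; no p was computed. Hes1 and Hey1 lay 0.21 apart, Hey1 and Nrarp 0.35, Hes1 and Nrarp 0.39 and Hes1 and Ptcra 0.42. No target lay that close to Dtx1, whose distances were 0.96 from Heyl, 1.31 from Nrarp, 1.42 from Hes1, 1.49 from Hey1, 1.67 from Ptcra, 1.74 from Hes5 and 1.92 from Igf1r. Hes5 and Igf1r also lay far from the rest: Hes5 was 1.50 (Heyl) to 2.33 (Ptcra) and Igf1r 1.34 (Heyl) to 1.90 (Ptcra) from the other 5 targets, and they were 0.80 from each other. Of all genes tested, the 5 closest to Dtx1 were Nkg7 (0.28), Prag1 (0.37), Kit (0.41), Plet1 (0.41) and Idi2 (0.59). From fresh to DMSO the first 4 had log2 changes of -1.28, -1.46, -1.65 and -1.41, in that order, and from DMSO to 79-6 all 5 had changes of 1.12, 1.47, 1.06, 1.38 and 1.06. Nkg7 encodes a granule protein of cytotoxic lymphocytes, and Kit the receptor for stem cell factor, which early thymic progenitors carry.

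The other targets had other neighbours. The 5 genes closest to Hes1 were Bace1 (0.12), Mycn (0.16), Tnfsf10 (0.19), Deptor (0.19) and Vipr2 (0.20). Closest to Hey1 were Nfib (0.15), Krt17 (0.20), Hes1 (0.21), Pdrg1 (0.22) and Pgm5 (0.22), so that 1 target lies among the nearest genes of another. Closest to Heyl were Rnf213 (0.13), B4galnt4 (0.16), Cd82 (0.20), Parp14 (0.20) and Tm6sf1 (0.21). Nrarp was nearest to Aldh1b1 (0.15), Dsp (0.17), Dkkl1 (0.19), Hhipl2 (0.21) and Eif2ak2 (0.21), and Ptcra to Nln (0.10), Cblb (0.15), Scn4b (0.16), Dnmt3b (0.21) and Chst8 (0.22). For Hes5 (Alox12b 0.04, Mag 0.05, Gm6083 0.05, Vwa2 0.05, Olfr611 0.05) and Igf1r (Slf2 0.07, Abcc5 0.09, Pole 0.10, Jade3 0.10, Spata48 0.10) the distances were shorter than for the other 6 targets.

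The genes that send and receive the Notch signal were read in the same fits. Counts in the lists below stand against the shares of all genes called. These were 8.89% higher and 10.7% lower from fresh to DMSO, 2.38% and 1.98% from DMSO to 79-6, and 12.0% and 13.9% from fresh to 79-6. Several list counts are near these shares, and a single call in a short list is not read as a result about that list. In the DMSO group 4 of 6 ligand genes were lower than in fresh cells and 0 higher (median -0.45), among them Dlk1 (-0.89), Jag1 (-0.63) and Dll4, the thymic ligand (-0.48, adjusted p = 0.0453 by limma); without fresh replicate 2 the count was 2. Of 9 receptors and glycosyltransferases, 3 were lower and 0 higher (median -0.12): Notch3 (-1.46, adjusted p = 5.5e-05 by limma), Notch1 (-0.92, adjusted p = 1.9e-04 by limma) and Pofut1, which adds fucose to Notch (-0.34). Not called were Notch2 (0.16), Notch4 (-0.12), the fringe genes Lfng (0.30), Mfng (-0.18) and Rfng (-0.11), and Poglut1 (0.07). The receptor genes Notch1 and Notch3 were thus lower in the same arrays as the 6 targets, while Notch2 and Notch4 were not called. Dll4 is made by thymic epithelium rather than by thymocytes.

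In the comparison of 79-6 with DMSO 0 of the 6 ligand genes were called (median 0.15), with Dll4 at 0.35 (adjusted p = 0.199 by limma) and Jag2 at 0.16. Among the 9 receptors and glycosyltransferases 1 was higher and 0 lower (median 0.14). This was Lfng, whose product extends the sugar on Notch and favours Dll4 signalling, at 0.82 (adjusted p = 0.00926 by limma), a call lost without DMSO replicate 2 or 79-6 replicate 2. Notch1 stood at 0.21 (95% interval 0.04 to 0.37, adjusted p = 0.159 by limma) and Notch3 at 0.28 (95% interval 0.09 to 0.48, adjusted p = 0.112 by limma). Both had 79-6 arrays above their DMSO arrays and intervals above 0 before adjustment for the number of genes, and neither passed the test. Not called either were Notch2 at 0.15, Notch4 at 0.04, Mfng at 0.14, Rfng at -0.15, Pofut1 at 0.01 and Poglut1 at -0.11. With limma's trend and robust settings 3 of the 9 were called higher. Against fresh cells, 2 of the 9 were higher with 79-6 (Lfng 1.11, Notch2 0.31) and 4 lower (Notch3 -1.17, Notch1 -0.72, Pofut1 -0.33, Rfng -0.26); leaving out 1 array gave 1 or 2 higher and 2 or 3 lower.

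Dtx1 belongs to a family of Deltex genes, and its relatives had smaller estimated changes. From DMSO to 79-6 the changes were 0.34 for Dtx4 (adjusted p = 0.0432 by limma), 0.21 for Dtx3l (0.149), -0.12 for Dtx3 (0.564) and -0.23 for Dtx2 (0.207). Dtx4 was the single call among 19 measured genes of Notch cleavage and turnover (median 0.11), and it was lost whichever of the 6 arrays was left out. From fresh to DMSO, Dtx3l fell by 0.87, Dtx4 fell by 0.87, Dtx2 rose by 0.53 and Dtx3 stood at -0.20 (adjusted p = 0.223 by limma). In that comparison 3 of the 19 were higher and 4 lower (median 0.03), against 8.89% and 10.7% of all genes. Adam17, a protease that cuts Notch, was among the higher genes (0.57).

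Rbpj, the protein through which Notch reaches DNA, was not called: it stood at -0.02 from fresh to DMSO and at 0.01 from DMSO to 79-6. From fresh to DMSO 8.89% of all genes were called higher and 10.7% lower. Of 19 measured genes of the Rbpj complex, its coactivators and its corepressors, 2 were higher and 4 lower in that comparison (median 0.05). Maml3, a Mastermind coactivator, had the largest change (-0.89), followed by Tle5 (0.43) and Ccnc (0.36). The 4 became 1 without any fresh or DMSO array, and the 2 became 0 when fresh replicate 1 or DMSO replicate 2 was left out, and 1 when fresh replicate 2 or DMSO replicate 1 was. When 79-6 was compared with DMSO 2 were higher and 0 lower (median -0.04), the coactivator Maml2 (0.45, adjusted p = 0.0215 by limma) and the corepressor Tle4 (0.34, adjusted p = 0.0413 by limma). Without either fresh array 1 call was left, and without any other array 0.

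Most of the other Hes and Hey family genes were not called. Of 8 measured, 2 were lower with DMSO than in fresh cells and 0 higher (median 0.01): Hey2 (-0.66, adjusted p = 0.0256 by limma) and Bhlhe40 (-0.40, adjusted p = 0.0235 by limma), and the count of lower genes was 0 when fresh replicate 2 or a DMSO array was left out. Hes2 (0.01), Hes3 (0.10), Hes6 (-0.10), Hes7 (0.09), Helt (0.02) and Bhlhe41 (0.12) were not called. With 79-6 against DMSO 0 of the 8 were called (median 0.00), and the furthest from 0 by p were Bhlhe41 at 0.14 and Hes3 at -0.06. Relative to fresh cells Hey2 (-0.73) and Bhlhe40 (-0.41) were lower with 79-6 as well, with 0 calls without fresh replicate 2 and 1 without either 79-6 array.

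A further list held genes that have been reported to respond to Notch in T-lineage cells, 23 of 28 of which were measured. From fresh to DMSO, 12 fell and 4 rose (median -0.25); the largest changes were in Id3, an inhibitor of E proteins (2.46), Gzmb, a granule protease (-2.28), and Il2ra, the interleukin 2 receptor alpha chain of DN3 cells (-1.94). With 79-6 against DMSO, 5 rose and 3 fell (median 0.02). The rises were in Gzmb (1.13, adjusted p = 0.0173 by limma), Runx3 (0.77, adjusted p = 0.00354 by limma), Bcl2 (0.68), Il2ra (0.58) and Trib2 (0.47), the falls in Myc (-0.51), Skp2 (-0.46) and Cdk6 (-0.33). The rises numbered 3 without DMSO replicate 1 or 79-6 replicate 1, 2 without 79-6 replicate 2 and 1 without DMSO replicate 2. The falls numbered 2 without either fresh array or 79-6 replicate 1, and 0 without either DMSO array or 79-6 replicate 2. None of these rises was as large as that of Dtx1 (1.29).

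**Figure D4:**
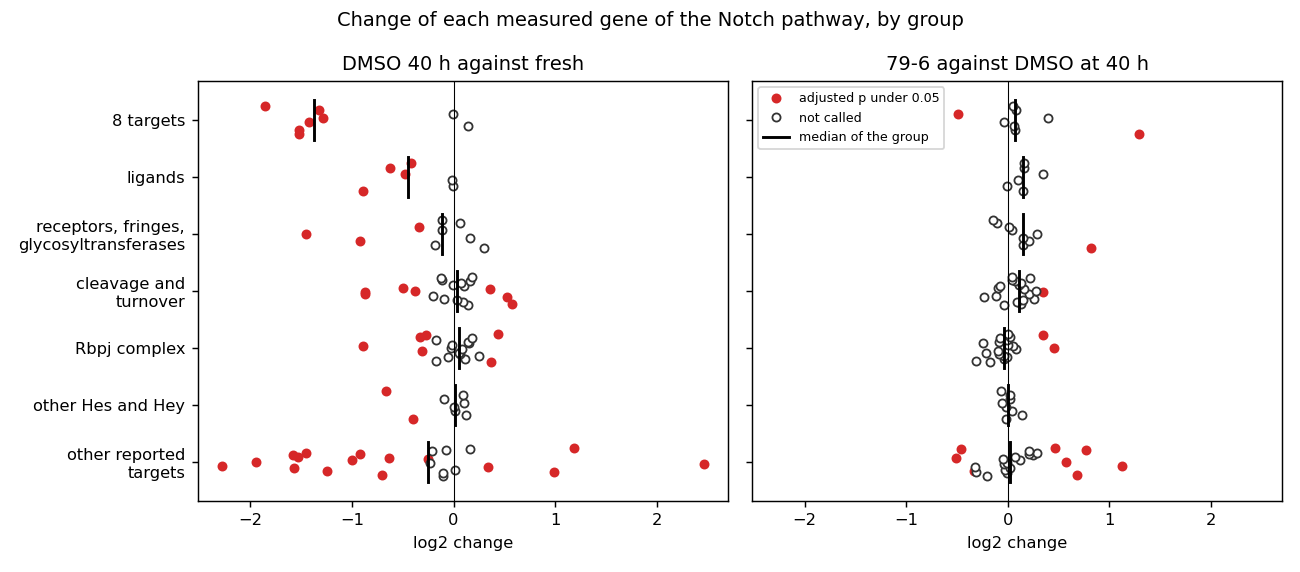
Log2 change (horizontal) of the 8 targets and of the measured genes of 6 Notch pathway lists, for DMSO against fresh (left) and 79-6 against DMSO (right); filled points are genes with an adjusted p under 0.05 by limma and bars are medians. On the right Dtx1 at 1.29 and Gzmb at 1.13 lie furthest to the higher side.

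The partners of Ptcra and Igf1r give the setting for these genes. Of 8 measured genes of the pre-T cell receptor complex and its kinases, 3 were higher and 4 lower with DMSO than in fresh cells (median -0.19). The kinase Zap70 rose by 1.42 while the related kinase Syk (-0.84) and Cd3g (-0.68) fell. With 79-6 against DMSO 0 of the 8 were called (median 0.02), the same outcome as for Ptcra; Cd247 stood at -0.27 and Cd3d at 0.19. Of 12 measured Igf pathway genes besides Igf1r, 1 was higher and 4 lower with DMSO than in fresh cells (median -0.07), with falls in the ligand Igf2 (-1.50), the binding protein Igfbp5 (-1.18) and the adaptor Grb10 (-0.98); the 1 higher gene lost its call when a fresh array or DMSO replicate 1 was left out. With 79-6 against DMSO, where Igf1r fell, 0 of the 12 were called (median 0.03), with Igfbp3 at -0.24 and Igfbp5 at -0.21.

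Markers of thymocyte stages moved with the fall of the targets. Of 10 DN3 markers, which include Ptcra, 7 fell and 0 rose from fresh to DMSO (median -1.75; Mpzl2 -3.51, Erg -2.38; 1 rose without fresh replicate 2), and all 10 measured markers of the double-positive stage rose (median 2.54; Cd8a 4.36, Cd2 3.35). Among the DN3 genes that fell was Rag1 (-0.34, adjusted p = 0.0152 by limma), the gene disrupted in these Rag1-/- embryos. The list also holds Cd44, which DN3 cells carry little of and which was not called (0.46). The summed intensity of the DN3 markers was 30768 to 33201 in fresh cells, 9770 to 9968 with DMSO and 11396 to 11839 with 79-6. With 79-6 against DMSO 4 genes of the DN3 list were higher and 1 lower (median 0.17). Kit (1.06, adjusted p = 0.00314 by limma) changed furthest, followed by Rag2 (-0.66). Kit is also carried by early thymic progenitors and is in the granulocyte and mast cell list too, so it does not mark the DN3 stage alone. Il2ra, whose rise is given above, was among the higher genes of the DN3 list as well. Of the double-positive markers 2 were lower, Cd6 (-0.69) and Cd4 (-0.48). The count of higher DN3 markers fell to 1 without either DMSO array and to 2 without 79-6 replicate 2, Rag2 lost its call when any DMSO or 79-6 array was left out, and the double-positive count to 1 without either fresh array or 79-6 replicate 1 and to 0 without any other array. The part of a change in stage in the values of the targets was not tested.

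Markers of other cells moved with the same groups. Of all genes, 8.89% were called higher and 10.7% lower from fresh to DMSO, and 2.38% and 1.98% from DMSO to 79-6. Of 16 thymic epithelial markers 15 fell from fresh to DMSO (Cdh1 -2.34, Tbata -1.66), with summed intensities of 15001 to 15377 in fresh cells, 4804 to 7008 with DMSO and 6043 to 6182 with 79-6. Of 15 macrophage and dendritic cell markers 5 rose from fresh to DMSO (Lyz2 3.88; 9 without fresh replicate 2) and 2 rose from DMSO to 79-6 (Itgax 1.14, C1qa 0.98; 6 without either fresh array, 1 without 79-6 replicate 1 and 0 without any other array), with sums of 6213 to 9447, 18463 to 19469 and 23998 to 26778. Of 12 measured natural killer and innate lymphoid markers 6 fell and 1 rose from fresh to DMSO (3 fell without fresh replicate 2 or DMSO replicate 2), and 5 rose and 1 fell from DMSO to 79-6 (Nkg7 1.12, Klrd1 0.97), with sums of 8823 to 9840, 8594 to 8654 and 10238 to 10429. The 5 became 3 without 79-6 replicate 1 and 1 without either DMSO array or 79-6 replicate 2. Without either DMSO array or 79-6 replicate 2 no marker of this list was called lower. The median change of this list was -0.42 from fresh to DMSO and 0.49 from DMSO to 79-6, against 0.02 over all genes in each. Nkg7 fell and then rose, as Dtx1 did. Gzma instead rose 2.01-fold from fresh to DMSO (adjusted p = 1.1e-04 by limma) and fell by 0.51 from DMSO to 79-6. Klrd1 stood at -0.03 from fresh to DMSO (adjusted p = 0.9 by limma) before its rise. The part of these cells in the Dtx1 values was not tested.

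In the remaining marker lists, granulocyte and mast cell genes moved both ways from fresh to DMSO, with 5 of 12 higher (Mmp8 4.03) and 2 lower (Kit -1.65, Cpa3 -1.61). Of 17 endothelial, pericyte and mesenchymal markers 5 fell (Pdgfrb -1.60; 3 without DMSO replicate 1) and 1 rose (0 without either fresh array or with DMSO replicate 2 left out). Of 5 measured erythroid markers 2 fell (Alas2 -2.73; 1 without fresh replicate 1 or DMSO replicate 2) and 1 rose, and of 8 measured B cell markers 2 fell. The part of these cells in the values of the targets was not tested. From DMSO to 79-6, 1 of the 17 endothelial, pericyte and mesenchymal markers fell (Pdgfrb -0.37, a call lost whichever array was left out), 1 of the 8 B cell markers rose (Cd79b 0.50, lost without either DMSO array or 79-6 replicate 2), and 0 of the 5 erythroid markers were called. Of the 12 granulocyte and mast cell markers 2 rose and 2 fell (Cpa3 -1.43, Mmp8 1.30), with sums of 5372 to 5389 with DMSO and 6832 to 8764 with 79-6; leaving out 1 array gave 1 to 4 rises and 1 or 2 falls.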

How the data were processed

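The 6 arrays were processed by the authors with RMA and the R package oligo, per the submitters' processing notes, with versions not given in the sources used here. What the authors deposited is an intensity per probe set on a linear scale, from 8.75 to 25316 (log2 3.13 to 14.63). The tests had been planned for log2 values, so log2 was taken first. RMA usually brings arrays to one distribution, which hides a change shared by most genes.

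Of 34760 probe sets 21640 had 1 gene symbol, 1321 several and 11799 none; only those with 1 were used, and the brightest over the 6 arrays stood for a gene (954 of 19937 genes had more than 1). limma 3.58.1 in R 4.3.3 fitted 1 mean per group to all 6 arrays with two-sided tests and Benjamini-Hochberg adjustment (residual degrees of freedom 3, prior 4.24). A second fit took the Dtx1 value minus each of 19936 genes. The program was tested on simulated data.

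The genes, lists and tests were chosen with earlier results of these data known. Named were all 8 targets, from each pathway list up to 3 called genes with the largest change or up to 2 with the smallest p, every receptor and other Hes and Hey gene, up to 2 markers per list and the 5 nearest profiles; the Deltex relatives, Rbpj, Il2ra, Trib2, Myc, Skp2 and Cdk6 were named after their values were seen. The lists overlap. The labels do not say that the 2 arrays of a group are separate cultures. The error behind the p-values is pooled over the 3 groups and drawn by limma towards that of all genes. If the arrays are not separate cultures, this error reflects only how far arrays of the same group differ. The number of arrays limits the precision. Promoter windows came from RefSeq (GRCm38.p6). Alternatives were leaving out each array, fitting only the 2 groups compared, a replicate block, a common median, a filter on dim probe sets, the mean of a gene's probe sets, trend and robust variance settings and linear means. The mean of probe sets leaves the values of the 8 targets unchanged, because each has a single probe set. Others, such as leaving out an array of the third group or fitting only the 2 groups compared, change the error and not the difference.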

Additional observations from a re-analysis of the deposited data

How the results depend on the processing

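Of 24 changes of the 8 targets, 16 kept their direction and their side of the threshold in every alternative, as did 16 of the 21 differences between Dtx1 and another target. Leaving out 1 array leaves its group with a single array, assumed to vary like the others. It turned the sign of changes near 0: from DMSO to 79-6, Hes1 ranged from -0.030 to 0.18, Hes5 from -0.0065 to 0.13, Hey1 from -0.17 to 0.10 and Nrarp from -0.027 to 0.20; from fresh to DMSO, Igf1r ranged from -0.045 to 0.027 and the Dtx1 change minus that of Hes1 from -0.090 to 0.094. Setting arrays to a common median gave Igf1r 0.032 from fresh to DMSO and moved the median of all genes by 0.04 in that comparison and by -0.01 from DMSO to 79-6.

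From DMSO to 79-6 the number of targets called higher was 2 with the filter on dim probe sets and 2 with trend and robust settings (Heyl was added); the number called lower was 0 to 1 with 1 array left out and 0 with only the 2 groups fitted (Igf1r). The targets that Dtx1 exceeded from fresh to DMSO numbered 0 to 1 with 1 array left out (0 without fresh replicate 1), and those it fell below with 79-6 against fresh 0 to 1 (0 without fresh replicate 1 or 79-6 replicate 2). The cause was not tested. Leaving out 1 array or fitting only the 2 groups leaves fewer arrays, while the filter and the trend and robust settings keep all 6.

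Counts over all genes moved more. From fresh to DMSO 3902 genes were called, and 2286 to 4070 with 1 array left out (2286, 2382, 2292 and 2347 without fresh replicates 1 and 2 and DMSO replicates 1 and 2). From DMSO to 79-6 869 were called, 93 to 661 with 1 array left out, 1469 with the filter on dim probe sets and 1723 with trend and robust settings. From fresh to 79-6 5174 were called, and 3081 to 5068 with 1 array left out.

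The 2 replicate numbers share no stated culture. Over all genes, the departures of arrays with one number from the means of their groups had correlations of 0.0036, 0.0948 and -0.0740, so the numbers are not taken as pairs. With a replicate block the Dtx1 change minus that of Igf1r, 79-6 against fresh, had an adjusted p of 0.0553 by limma; no other call on the 8 targets was changed by the block.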
